A study of Mus musculus with 60 samples.

Results

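Calf muscle of Dmdmdx/Largemyd double mutant mice was compared with calf muscle of Dmdmdx mice at 6 months of age. The comparison takes the 5 arrays labelled as double mutant and the 5 labelled as Dmdmdx at that age, 10 of the 60 arrays in the series. The labels give every animal as an untreated male, and each array held the RNA of 1 animal. The double mutants carried the Dmdmdx and the Largemyd mutation, and the Dmdmdx mice carried the Dmdmdx mutation alone, so that both groups shared the defect in dystrophin. The same contrast at 21 days and at 3 months, and Largemyd against C57Bl/6 mice at 6 months, each with 5 animals a group, are given beside it. The labels used here name no strain background, litter or array batch. The mutations are present in every cell of the animal, and whole calf muscle holds fibres, connective tissue, vessels, nerve, fat and immune cells together.

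Dystrophin ties the actin of the muscle fibre to a complex of membrane proteins, in which α-dystroglycan binds laminin in the basement membrane outside the fibre. That binding needs a long sugar chain on α-dystroglycan, which Largemyd mice fail to build, while Dmdmdx mice make almost no dystrophin. Dmdmdx muscle degenerates early in life and then regenerates well, whereas Largemyd mice have a more severe dystrophy, and the comparison asks what differs in muscle when the second defect is added to the first.

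Values are log2 RMA expression values, with 1 probe set for each of 19938 genes. A difference is the double mutant mean minus the Dmdmdx mean in log2 units ± its standard error (n = 5 each), so that a difference of 1 is 2-fold. A gene was called when its adjusted p was under 0.05 in limma, with Benjamini-Hochberg adjustment over all 19938 genes. Standard errors and p-values rest on the spread between animals pooled over all 12 groups of the series, not on the 10 arrays alone. In a fit to the 10 arrays alone 1327 genes were called, against 913 in the fit to all 60.

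Some arrays stood apart. Xist, which is transcribed from an inactive X chromosome, was at 11.10 in Dmdmdx replicate 4 although it is labelled male, and between 5.11 and 5.66 in the other Dmdmdx arrays, while the double mutants lay between 5.17 and 5.51. Double mutant replicate 4 had a mean of 10.82 over neutrophil and marrow genes, 9.97 over erythroid genes and 8.75 over B cell genes, against at most 6.98, 6.71 and 7.19 in the other double mutants. Dmdmdx replicate 5 had a mean of 9.25 over the neutrophil and marrow genes. Some results are also given without the high-Xist arrays, or without the other-tissue arrays, which are the 13 of the series whose mean over neutrophil, erythroid, T cell, B cell, skin or bone genes exceeded the median of arrays of that age by over 2 in log2 units. Of the 10 arrays compared, that setting leaves out double mutant replicate 4 and Dmdmdx replicate 5, both for marrow genes.

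The genes of the dystrophin to dystroglycan link were not called. Dmd, which encodes dystrophin, was at 8.87, 8.66, 9.09, 8.44 and 8.89 in the double mutants, against 9.34, 8.92, 8.90, 8.97 and 8.64 in Dmdmdx (difference -0.17 ± 0.18, adjusted p = 0.81). Utrn, encoding the dystrophin homologue utrophin, differed by 0.11 ± 0.07 (adjusted p = 0.52), and Dag1, encoding dystroglycan, by -0.22 ± 0.10 (adjusted p = 0.28). The groups overlapped for each of these genes.

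In all, 913 genes were called (4.58% of those tested), with 504 higher (2.53%) and 409 lower (2.05%) in the double mutants. Of these, 52 differed by 2-fold or more (0.261%), 33 upward and 19 downward. The groups' arrays did not overlap for 1611 genes (8.08%), with 757 higher (3.8%) and 854 lower (4.28%), and 723 genes were both called and apart (3.63%). In all 20 alternatives (other sets of arrays, scalings and models, and each array left out) the called genes kept their direction wherever measured. They were called on these same arrays, which the alternatives reuse in whole or in part, so the kept direction is no independent check. Of the 135 called genes picked for naming, by the rule or after their values were seen, 73 lost their call in at least 1 alternative. The losses are given beside only some of these genes below, so a gene without that mark may also have lost its call. Among the genes without it, Atp2a2 lost its call in 12 of 20 alternatives. Col8a1, Igf1, Lum, Lyz1 and Prg4 each lost theirs in 9 of 20. The count of calls was 590 without double mutant replicate 5 and 592 without Dmdmdx replicate 4, the higher genes numbered 318 and 312 without these arrays in turn, and the lower genes 272 without double mutant replicate 5 and 251 without double mutant replicate 4. The share of calls that were higher was 55.2% with the values as deposited, 44.5% of 897 with each array's median subtracted, and 45.3% of 890 without the high-Xist arrays.

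The largest rise among genes whose groups did not overlap was that of Vsig4, a complement receptor of tissue macrophages. It was at 8.26, 9.32, 9.58, 9.32 and 9.16 in the double mutants, against 6.18, 6.27, 6.32, 6.38 and 7.13 in Dmdmdx. Every double mutant was above every Dmdmdx mouse, and the difference of 2.68 ± 0.32 was a 6.39-fold rise (adjusted p = 1.6e-07). Ccl8, a chemokine that draws monocytes and other leukocytes, was at 9.96, 10.34, 10.19, 11.19 and 10.70 in the double mutants, against 8.91, 9.15, 9.88, 8.71 and 8.84 in Dmdmdx. Its groups almost met, and the rise of 1.38 ± 0.38 (adjusted p = 0.020) was not called without double mutant replicate 4 (1.2, adjusted p = 0.084), double mutant replicate 5 (1.32, adjusted p = 0.056), Dmdmdx replicate 4 (1.28, adjusted p = 0.067) or Dmdmdx replicate 5 (1.31, adjusted p = 0.051). Rrad, a small GTPase that restrains voltage-gated calcium channels, was at 11.20, 10.33, 9.65, 9.19 and 10.32 in the double mutants, against 8.64, 8.73, 8.99, 8.83 and 8.78 in Dmdmdx. It rose by 1.35 ± 0.30 (adjusted p = 0.0030), and the double mutants spread far more widely than the Dmdmdx mice.

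Ocel1 had tight groups far apart. It was at 9.38, 9.30, 9.54, 9.45 and 9.45 in the double mutants, against 8.12, 8.19, 8.15, 8.07 and 8.06 in Dmdmdx, a rise of 1.31 ± 0.08 (adjusted p = 1.5e-17). Lyve1, a hyaluronan receptor of lymphatic vessels and of some resident macrophages, was at 9.69, 9.37, 10.35, 10.68 and 10.55 in the double mutants, against 8.18, 8.83, 9.21, 8.92 and 9.11 in Dmdmdx. Its lowest double mutant lay just above the highest Dmdmdx mouse, and it rose by 1.28 ± 0.24 (adjusted p = 0.00042). The other rises among the 10 largest were of Mt1, a metallothionein that binds zinc and copper (1.23 ± 0.26), Il33, an alarm cytokine of stromal cells (1.21 ± 0.23), Sfrp1, a secreted Wnt antagonist (1.19 ± 0.23), Lrrc52, an accessory subunit of potassium channels (1.18 ± 0.29), and Cpa3, the carboxypeptidase of mast cells (1.17 ± 0.29). Without Dmdmdx replicate 1, the lowest array for Cpa3, its difference was 0.86 (adjusted p = 0.080).

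Hal, the enzyme that starts histidine breakdown, had a larger difference than any of these but overlapping groups, and was chosen after its values were seen. It was at 6.63, 9.59, 10.29, 10.74 and 10.75 in the double mutants, against 6.65, 6.63, 6.52, 6.58 and 6.49 in Dmdmdx. Double mutant replicate 1 lay among the Dmdmdx mice and the other double mutants far above them, and the 8.13-fold rise was called (3.02 ± 0.56, adjusted p = 0.00044).

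The largest fall was that of Chac1, an enzyme that degrades glutathione and is induced by cell stress. It was at 7.87, 8.24, 9.07, 9.24 and 8.49 in the double mutants, against 10.16, 9.95, 10.71, 9.61 and 10.49 in Dmdmdx. The groups were apart, and the fall was 3.03-fold (-1.60 ± 0.37, adjusted p = 0.0047). Mc5r, a melanocortin receptor, was at 6.84, 7.33, 6.98, 7.41 and 7.42 in the double mutants, against 8.64, 8.66, 8.64, 8.96 and 9.02 in Dmdmdx. Here a wide gap separated the groups (-1.59 ± 0.20, adjusted p = 8.4e-07). Pfkfb3, which makes the main activator of phosphofructokinase in glycolysis, was at 9.38, 8.88, 9.62, 9.78 and 9.39 in the double mutants, against 11, 10.98, 11.09, 10.11 and 11.05 in Dmdmdx. Dmdmdx replicate 4 lay near the double mutants and the other Dmdmdx mice well above them (-1.44 ± 0.27, adjusted p = 0.00047).

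Plcd4, a phospholipase that releases inositol trisphosphate, was at 9.24, 9.0, 9.05, 8.44 and 9.10 in the double mutants, against 10.32, 10.36, 10.21, 10.10 and 10.73 in Dmdmdx (-1.38 ± 0.35, adjusted p = 0.013). Klhl33 was at 7.86, 7.92, 8.16, 7.57 and 7.78 in the double mutants, against 9.16, 9.31, 9.28, 9.21 and 8.79 in Dmdmdx (-1.29 ± 0.18, adjusted p = 8.1e-06). For both, every double mutant lay below every Dmdmdx mouse. The other falls among the 10 largest were of Mss51, a muscle protein linked to mitochondria (-1.27 ± 0.33), Sh3rf2 (-1.25 ± 0.22), Lrtm1 (-1.20 ± 0.22), Asb15, an ankyrin repeat protein of skeletal muscle (-1.20 ± 0.22), and Mettl11b, a protein methyltransferase (-1.13 ± 0.27). Without double mutant replicate 4, Plcd4 and Mss51 had adjusted p values of 0.051 and 0.052.

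**Figure D1:**
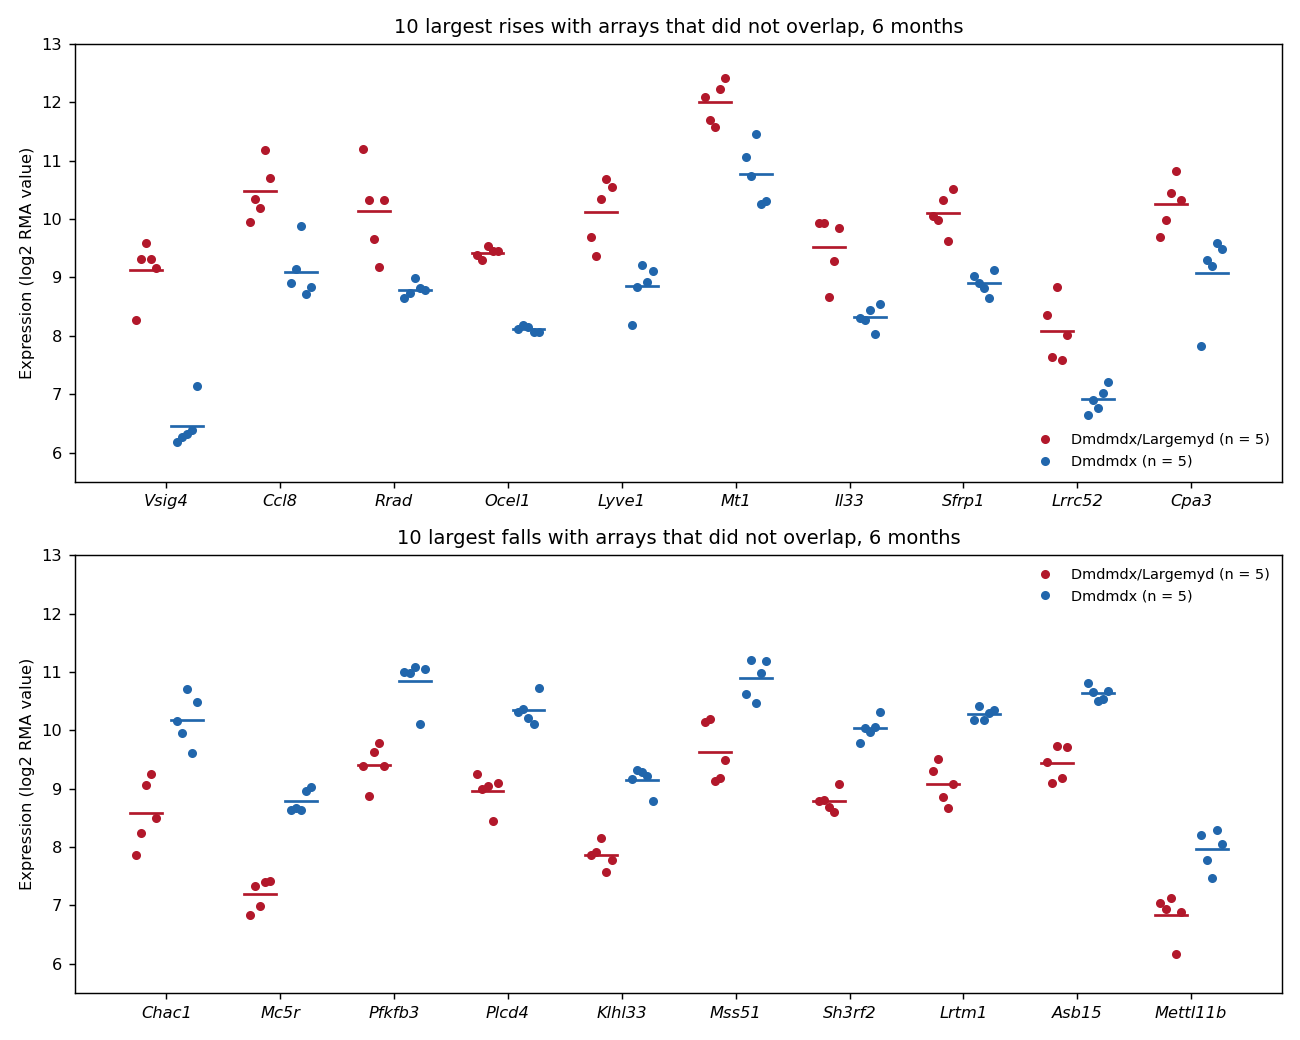
Log2 RMA value (vertical axis) in each array for the 10 largest rises (upper panel) and the 10 largest falls (lower panel) among called genes whose groups did not overlap, with the 5 double mutants to the left of the 5 Dmdmdx mice and a line at each mean. Vsig4 is at 8.26 or more in every double mutant and at 7.13 or less in every Dmdmdx mouse, and Ocel1 shows tight groups far apart.

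Of 28 measured genes of glycolysis and glycogen use 8 were called lower (28.6%) and 1 higher (3.57%). Beside each list count of this contrast with all arrays stand 2.05% of all genes called lower and 2.53% called higher. In the glycolysis list 23 had a negative difference (median -0.34, against -0.0042 over all genes). The mean over the list lay between 11.20 and 11.47 in the double mutants and between 11.62 and 11.70 in Dmdmdx. Beside Pfkfb3, the falls took in subunits of phosphorylase kinase, which switches on glycogen breakdown. Phkg1, its catalytic subunit in muscle, was at 10.71, 10.34, 10.63, 10.21 and 10.50 in the double mutants, against 11.41, 11.55, 11.45, 11.38 and 11.36 in Dmdmdx (-0.95 ± 0.22, adjusted p = 0.0056), with the groups well apart. Phka1, its muscle regulatory subunit, fell by 0.82 ± 0.22 log2 units and Phkb by 0.66 ± 0.17. Gpd2, the mitochondrial enzyme of the glycerol phosphate shuttle, fell by 0.89 ± 0.13 (adjusted p = 1.0e-05), and Ppp1r3a, which brings a phosphatase to glycogen, fell by 0.75 ± 0.16. Without the other-tissue arrays 13 genes of the list were called lower. In that setting 456 of all genes were called lower and 574 higher, which also stand beside the later list counts without these arrays.

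Prkag3 and Prkab2, subunits of the AMP-activated kinase that senses fuel in muscle, were chosen after their values were seen and fell by 0.90 ± 0.24 and 0.81 ± 0.18 log2 units. Of 74 genes of the respiratory chain 2 were lower (2.7%, against 2.05% of all genes) and 1 higher (1.35%, against 2.53%), although 70 had a negative difference (median -0.11). The called ones were Ndufa9 (-0.39 ± 0.11), Sdha (-0.30 ± 0.08) and Cox8a (0.28 ± 0.09), which was not called in 13 of 20 alternatives (adjusted p up to 0.24). With 1 array left out 0 to 3 were lower and 0 to 1 higher. Of 27 genes of the citrate cycle and amino acid use 1 was lower (3.7%, against 2.05% of all genes). It was Gpt2, an alanine transaminase (-0.68 ± 0.20), which was not called in 8 of 20 alternatives (adjusted p up to 0.090). Of 34 genes of fatty acid oxidation limma called none (median 0.011).

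Of 20 fast fibre genes 7 were lower and 0 higher (median -0.26). Myh4, the myosin heavy chain of the fastest fibres, was at 13.09, 13.04, 12.98, 12.95 and 12.96 in the double mutants, against 13.43, 13.36, 13.37, 13.32 and 13.32 in Dmdmdx. The groups were narrow and apart, and the fall was 0.36 ± 0.09 log2 units (adjusted p = 0.0067). Pfkm, the muscle phosphofructokinase, fell by 0.50 ± 0.13, Mybpc2, a thick filament protein, by 0.45 ± 0.12, and Actn3, the α-actinin of fast fibres, by 0.32 ± 0.08. Myh1 and Myh2, heavy chains of other fast fibres chosen after their values were seen, were not called (0.0049 ± 0.11 and 0.39 ± 0.21), and the difference of Myh1 was -0.025 with array medians subtracted. The count of lower fast fibre genes was 2 without double mutant replicate 4 and 11 without the other-tissue arrays.

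Of 16 slow fibre genes 15 had a positive difference (median 0.53) and 3 were called higher. These were Myoz2, a Z-disc protein (0.90 ± 0.28), Atp2a2, the calcium pump of slow fibres and heart (0.62 ± 0.19), and Pln, its inhibitor phospholamban (0.58 ± 0.17), and the groups overlapped for each. Myh7, the slow myosin heavy chain, chosen like Myl2 and Myl3 after its values were seen, was at 11.51, 11.84, 11.89, 9.97 and 11.28 in the double mutants, against 9.58, 10.82, 10.46, 10.88 and 11.04 in Dmdmdx. Double mutant replicate 4 lay below most Dmdmdx mice and Dmdmdx replicate 1 below all other arrays, and the difference of 0.74 ± 0.42 was not called (adjusted p = 0.42). Myl2 and Myl3, light chains of slow myosin, were not called either (0.67 ± 0.44 and 0.67 ± 0.46). No slow fibre gene was called by limma without double mutant replicate 1 or 3 or Dmdmdx replicate 2 or 3, or with array medians subtracted, 1 was called without double mutant replicate 2 or 5 or Dmdmdx replicate 1, and 6 were called without the other-tissue arrays.

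Of 26 calcium handling genes 6 were lower and 1 higher (median -0.26). Ryr1, the calcium release channel, was at 12, 11.88, 12.07, 11.52 and 11.79 in the double mutants, against 12.50, 12.51, 12.44, 12.50 and 12.47 in Dmdmdx (-0.63 ± 0.14, adjusted p = 0.0035). The Dmdmdx mice lay close together and above every double mutant. Cacna1s, the voltage sensor that opens the channel (-0.60 ± 0.16), Jph1, which holds the triad membranes together (-0.61 ± 0.17), Camk2a, a calmodulin-dependent kinase (-0.64 ± 0.16), and Hrc, a calcium-binding protein of the reticulum (-0.55 ± 0.15), were lower too. Rcan1, an inhibitor of calcineurin, rose by 0.75 ± 0.19. The count of lower genes was 1 without double mutant replicate 4 and 9 without the other-tissue arrays.

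In the dystrophin complex Nos1, the nitric oxide synthase that dystrophin holds at the membrane, was lower. It was at 7.88, 7.53, 8.37, 8.11 and 7.77 in the double mutants, against 8.59, 8.72, 8.56, 9.61 and 8.99 in Dmdmdx (-0.96 ± 0.21, adjusted p = 0.0029), with Dmdmdx replicate 4 the highest array. Without the high-Xist and the other-tissue arrays its difference was -0.74 (adjusted p = 0.085). Sntb2, a syntrophin, was higher (0.30 ± 0.07), and the other 12 of 14 measured members were not called. The 1 higher and the 1 lower gene are each 7.14% of the list, against 2.53% and 2.05% of all genes. Of 13 measured enzymes that build the sugar chain of dystroglycan limma called none (median -0.14).

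All 51 measured genes of the interstitial matrix had a positive difference (median 0.34), and 15 were called higher. Mfap5, a microfibril protein, was at 11.46, 11.69, 11.33, 11.03 and 11.59 in the double mutants, against 10.62, 10.62, 10.60, 10.68 and 10.31 in Dmdmdx (0.85 ± 0.15, adjusted p = 0.00027), with no overlap. Vcan, the proteoglycan versican, rose by 0.77 ± 0.16, Col14a1, a collagen of fibril surfaces, by 0.74 ± 0.17, Thbs1, a thrombospondin that activates latent TGFβ, by 0.72 ± 0.21, Aspn, a small leucine-rich proteoglycan, by 0.71 ± 0.16, and Col8a1, a network-forming collagen, by 0.68 ± 0.20. The main fibril collagens, chosen after their values were seen, were not called, with 0.23 ± 0.23 for Col1a1, 0.25 ± 0.19 for Col1a2 and 0.19 ± 0.17 for Col3a1. In whole muscle, a change in the number of cells of a type and a change in RNA per cell cannot be told apart. The count of higher matrix genes was 7 without double mutant replicate 5 or Dmdmdx replicate 4, 8 without double mutant replicate 1 or 2 or Dmdmdx replicate 1, and 9 without Dmdmdx replicate 2.

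Of 21 basement membrane genes, which include the partners of dystroglycan outside the fibre, limma called none (median 0.022). Lama2, the laminin chain of adult muscle, chosen after its values were seen, differed by 0.29 ± 0.14 (adjusted p = 0.27). Of 26 integrin and adhesion genes 3 were higher, Itga11 (0.51 ± 0.11), Itga5 (0.50 ± 0.13) and Itga9 (0.49 ± 0.09), and Synm, an intermediate filament protein of the fibre, was lower (-0.64 ± 0.17).

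Of 30 genes of fibro-adipogenic cells, the resident cells that give rise to matrix and fat in muscle, 7 were higher and 0 lower (median 0.34). The mean over the list lay between 10.09 and 10.25 in the double mutants and between 9.59 and 9.88 in Dmdmdx. Pdgfra, the receptor that marks these cells, was at 10.74, 10.73, 10.76, 10.59 and 10.83 in the double mutants, against 9.91, 10.11, 10.23, 10.11 and 10.25 in Dmdmdx (0.61 ± 0.11, adjusted p = 0.00023). All double mutants were above all Dmdmdx mice. Lum (0.64 ± 0.19) and Dpt (0.62 ± 0.15), which organise collagen fibrils, were also called, and Lum and Mfap5 stand on the matrix list as well.

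Among 30 proteases and their inhibitors 7 were higher and 0 lower. They include the matrix metalloproteinases Mmp19 (0.91 ± 0.18), Mmp3 (0.90 ± 0.20) and Mmp2 (0.54 ± 0.10), and Serpina3n, an inhibitor of serine proteases (1.15 ± 0.34), which was not called in 8 of 20 alternatives (adjusted p up to 0.17). Of 32 genes of the TGFβ family 4 were higher and 1 lower. Fst, the secreted inhibitor of activin and myostatin, rose by 0.83 ± 0.16, the receptors Tgfbr2 and Tgfbr3 by 0.45 ± 0.09 and 0.38 ± 0.12, and Ltbp3, which binds latent TGFβ, by 0.26 ± 0.07, while Acvr2b, a receptor of myostatin, fell by 0.33 ± 0.10. Tgfbr3 was not called in 11 of 20 alternatives (adjusted p up to 0.34) and Acvr2b in 10 of 20 alternatives (adjusted p up to 0.17). Mstn, which encodes myostatin and was chosen after its values were seen, was not called (-0.89 ± 0.30, adjusted p = 0.071). The higher count of the family was 2 without double mutant replicate 1 or 5 or Dmdmdx replicate 1 or 4.

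**Figure D2:**
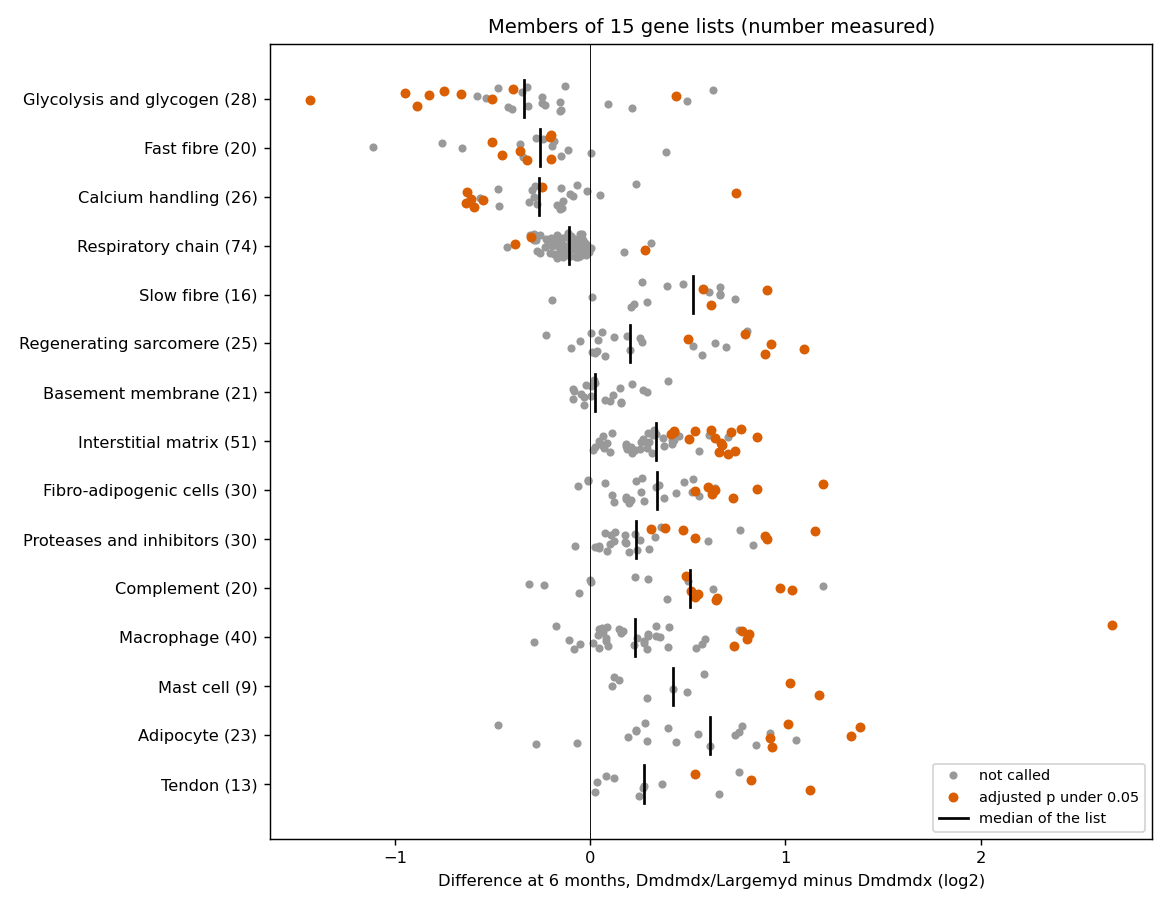
Difference at 6 months in log2 units, double mutant minus Dmdmdx (horizontal axis), for every measured member of 15 gene lists (number measured in brackets), with called genes in orange, other genes in grey and a black line at each median. All 51 points of the interstitial matrix list lie to the right of 0, and the medians of the glycolysis, fast fibre and calcium lists lie at -0.34, -0.26 and -0.26.

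Among immune genes, complement had the most calls. Of 20 complement genes 9 were higher and 0 lower (median 0.51). C6, a part of the membrane attack complex, was at 6.65, 6.97, 7.12, 8.10 and 7.33 in the double mutants, against 6.16, 6.24, 6.44, 6.08 and 6.41 in Dmdmdx (0.97 ± 0.17, adjusted p = 0.00030). Double mutant replicate 4 was the highest array and the groups did not overlap. C4b, of the classical pathway, rose by 1.03 ± 0.24, and C1qc and C1qa, chains of the protein that starts it, by 0.65 ± 0.19 and 0.65 ± 0.17, with overlapping groups. C1qc was not called in 9 of 20 alternatives (adjusted p up to 0.32) and C1qa in 8 of 20 (adjusted p up to 0.54). Without the high-Xist and the other-tissue arrays 6 complement genes were called higher, where 388 of all genes were, and C4b differed by 0.75 (adjusted p = 0.17).

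Of 40 macrophage genes 5 were higher and 0 lower (median 0.23). Beside Vsig4 these were Lyz1, a lysozyme (0.82 ± 0.24), Fcgr2b, the inhibitory Fc receptor (0.80 ± 0.16), and Mrc1 and Cd163, scavenger receptors of resident macrophages (0.78 ± 0.16 and 0.74 ± 0.19). Mrc1 was at 10.61, 10.69, 10.40, 10.85 and 10.79 in the double mutants, against 9.98, 9.84, 10.37, 9.54 and 9.70 in Dmdmdx, with Dmdmdx replicate 3 just below the lowest double mutant. Genes of macrophages in general, chosen after their values were seen, were not called: Cd68 differed by 0.092 ± 0.28, Mpeg1 by 0.064 ± 0.37, Adgre1 by 0.29 ± 0.25 and Csf1r by 0.28 ± 0.15. Without the high-Xist arrays the differences of Cd68 and Mpeg1 were -0.022 and -0.0073. The count of higher macrophage genes was 3 without double mutant replicate 4, and 2 without the high-Xist and the other-tissue arrays, where the median of the list was -0.02 and Mrc1 differed by 0.56 (adjusted p = 0.12).

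Of 35 chemokines and cytokines 6 were higher and 0 lower. With Ccl8 and Il33 these were Ccl6 (0.86 ± 0.23), Cxcl14 (0.73 ± 0.15), Cx3cl1 (0.49 ± 0.09) and Csf1, the growth factor of macrophages (0.37 ± 0.11), which was not called in 13 of 20 alternatives (adjusted p up to 0.51). The count was 3 without double mutant replicate 4 or Dmdmdx replicate 4. Of 9 mast cell genes Cpa3 and the protease Mcpt4 (1.03 ± 0.25) were higher, and limma called neither without Dmdmdx replicate 1, which had the lowest mean over the list, 6.69, against 7.43 and 8.15 as the lowest and highest of the double mutants.

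Limma called none of 18 neutrophil and marrow, 11 erythroid, 25 T cell, 18 B cell, 29 interferon-induced and 15 antigen presentation genes, with medians between -0.073 and 0.33. Without the other-tissue arrays the medians of the neutrophil and erythroid genes were -0.10 and -0.069.

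Of 23 adipocyte genes 5 were higher and 0 lower (median 0.61). Fasn, the fatty acid synthase, was at 11.49, 9.67, 9.80, 11.42 and 11.32 in the double mutants, against 8.99, 9.53, 9.33, 10.17 and 8.99 in Dmdmdx (1.34 ± 0.31, adjusted p = 0.0055). Double mutant replicates 1, 4 and 5 were above all Dmdmdx mice, and replicates 2 and 3 lay below the highest of them. Acaca, which makes the substrate of that enzyme (0.93 ± 0.23), Dgat2, which completes triglycerides (0.92 ± 0.19), Thrsp, a regulator of fat synthesis (1.01 ± 0.25), and the hormone Retn (1.38 ± 0.42) were also called, and Agpat2, another enzyme of triglyceride synthesis, chosen after its values were seen, rose by 1.15 ± 0.25. Adipoq, the hormone of mature fat cells, also chosen after its values were seen, was not called (0.85 ± 0.41, adjusted p = 0.29). The groups overlapped in the mean over the list, which was highest in double mutant replicate 4, at 10.66, and lowest in Dmdmdx replicate 1, at 9.12. Retn was not called in 11 of 20 alternatives (adjusted p up to 0.17). The count of higher genes was 3 without double mutant replicate 4 and 2 without the other-tissue arrays.

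Comp, a matrix protein of cartilage and tendon, was at 9.50, 9.38, 9.55, 9.48 and 9.82 in the double mutants, against 7.69, 8.60, 8.52, 8.60 and 8.69 in Dmdmdx (1.13 ± 0.23, adjusted p = 0.0018). Every double mutant was above every Dmdmdx mouse. With Prg4, a joint lubricant (0.82 ± 0.24), and Thbs4, a thrombospondin of tendon and muscle (0.54 ± 0.15), it made 3 higher genes of 13 on the tendon list, where 1 was called without double mutant replicate 1, 2 or 5 or Dmdmdx replicate 1 or 2. The mean over the list was between 9.41 and 9.82 in the double mutants and between 8.80 and 9.39 in Dmdmdx. Of 23 genes of nerve and Schwann cells 3 were higher, the sodium channel Scn7a (0.72 ± 0.15), the myelin protein Pmp22 (0.42 ± 0.12) and Egr2, a regulator of myelin genes (0.41 ± 0.11), and 1 was called without double mutant replicate 2 or 5.

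Among genes of regenerating fibres 5 of 25 were higher and 0 lower (median 0.20). Csrp3 and Ankrd2, sensors of mechanical load in the sarcomere, rose by 1.09 ± 0.32 and 0.90 ± 0.25, Sln, an inhibitor of the calcium pump, by 0.79 ± 0.19, Krt18, a keratin, by 0.92 ± 0.22, and Myh10, a non-muscle myosin, by 0.50 ± 0.10. The other 20 were not called, among them Myh3, Myh8, Myl4 and Chrng, which were chosen after the calls were seen. The count of higher genes was 3 without double mutant replicate 1, 3 or 5 or Dmdmdx replicate 1, 2 or 4. Of 29 genes of satellite cells and myogenic factors 1 was higher (3.45%, against 2.53% of all genes) and 1 lower (3.45%, against 2.05%). Sdc4, a surface proteoglycan of satellite cells, was higher (0.46 ± 0.11) and the transcription factor Mef2a lower (-0.28 ± 0.07). Mef2a was not called in 6 of 20 alternatives (adjusted p up to 0.44). Of 43 cell cycle genes limma called none (median 0.0043). Of 31 growth factor genes 4 were higher, Fgf7 (0.81 ± 0.14), Igfbp4, a binding protein of insulin-like growth factors (0.69 ± 0.11), Fgf2 (0.56 ± 0.15) and Igf1, which drives fibre growth (0.44 ± 0.13), and 2 were called without double mutant replicate 1 or 5 or Dmdmdx replicate 1 or 2.

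Of 29 genes of atrophy and protein breakdown 4 were higher and 1 lower. Mt2, a metallothionein like Mt1, was at 13.36, 13.20, 13.12, 13.40 and 13.46 in the double mutants, against 12.65, 12.36, 13, 11.66 and 12.03 in Dmdmdx (0.97 ± 0.24, adjusted p = 0.0084). The Dmdmdx mice spread widely and the double mutants little, and without Dmdmdx replicate 4 the difference was 0.80 (adjusted p = 0.058). Runx1, a transcription factor induced by denervation (0.57 ± 0.17), and Gadd45a, a stress-response gene (0.48 ± 0.12), were higher, and Foxo4 was lower (-0.47 ± 0.11). The higher count was 2 without double mutant replicate 5 or Dmdmdx replicate 4. Nox4, which makes hydrogen peroxide, rose by 0.88 ± 0.18 and Sod3, the extracellular superoxide dismutase, by 0.42 ± 0.12, of 28 genes of oxidative stress, and Sod3 was not called in 8 of 20 alternatives (adjusted p up to 0.13). Among 22 chaperones Hspa1a (0.59 ± 0.17) and Hsp90aa1 (0.53 ± 0.16) were higher and Unc45b, the myosin chaperone, was lower (-0.69 ± 0.16). With any 1 array left out 0 to 1 chaperones were higher, and Hsp90aa1 was not called in 11 of 20 alternatives (adjusted p up to 0.25). Ache, the acetylcholinesterase of the synapse, was the called gene among 20 of the neuromuscular junction and was lower (-0.55 ± 0.14). It makes up 5% of that list, against 2.05% of all genes called lower.

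**Figure D3:**
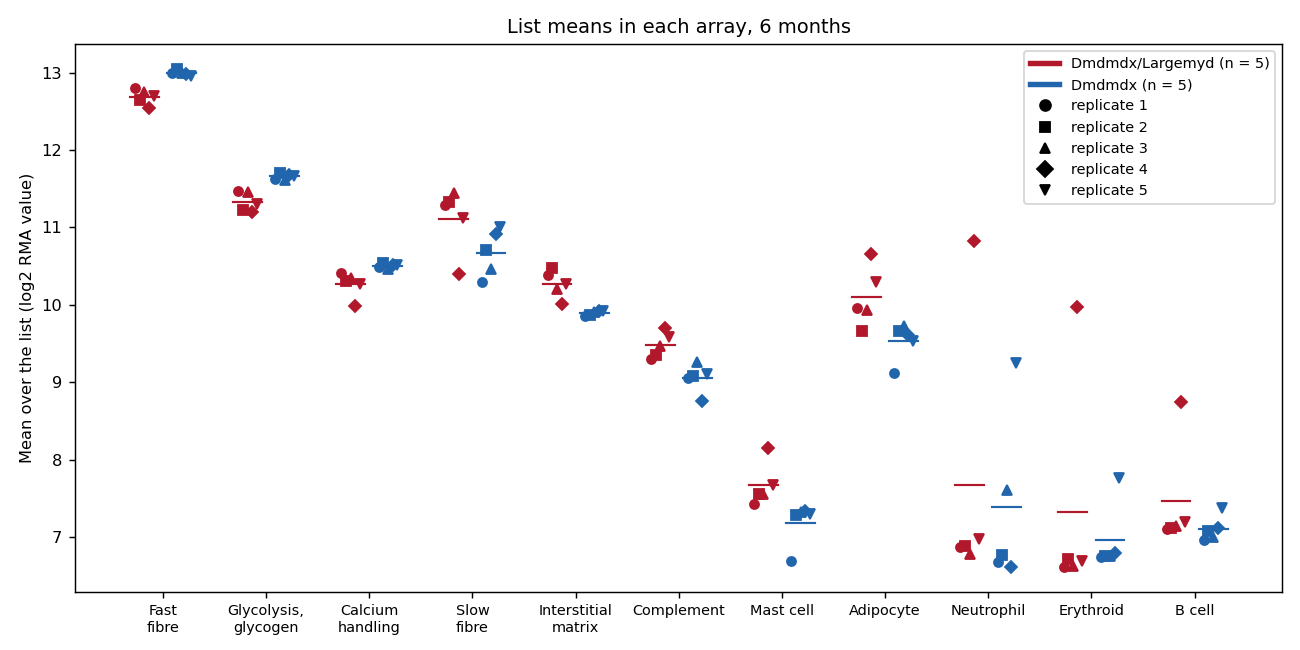
Mean log2 RMA value over the measured genes of 11 lists (vertical axis) in each array, double mutants to the left of Dmdmdx, with 1 symbol per replicate and a line at each group mean. Double mutant replicate 4 stands at 10.82 for the neutrophil and 9.97 for the erythroid genes, far above the other arrays of its group, and the groups do not overlap for the fast fibre, glycolysis and interstitial matrix lists.

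Of 300 tested microRNA genes 4 were lower (1.33%, against 2.05% of all genes) and 0 higher in limma, and those named here were chosen after their values were seen. The array reads the transcripts of these genes, not the mature RNAs. Mir181b-2 and Mir181a-2 were both lower, and their 5p products share the seed, bases 2 to 8, which is in capitals in the sequences that follow. They lie on the plus strand at chr2:38853845-38853868 (miR-181b-5p) and chr2:38852741-38852763 (miR-181a-5p) of GRCm38.p6, and the sequences are RefSeq's, 5′ to 3′.
mmu-miR-181b-5p: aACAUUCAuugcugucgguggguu
mmu-miR-181a-5p: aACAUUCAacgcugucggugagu
Mir181b-2 was at 6.46, 6.54, 6.83, 6.18 and 6.26 in the double mutants, against 7.39, 7.12, 7.31, 7.61 and 7.42 in Dmdmdx (-0.92 ± 0.21, adjusted p = 0.0039). Mir181a-2 was at 6.35, 6.26, 6.40, 6.01 and 6.21 in the double mutants, against 6.65, 6.62, 6.64, 7.12 and 6.5 in Dmdmdx (-0.46 ± 0.13, adjusted p = 0.030). Neither gene's groups overlapped, and Mir181a-2 was not called in 6 of 19 alternatives (adjusted p up to 0.26). The other lower genes were Mir133a-2 (-0.80 ± 0.20) and Mir1a-2 (-1.58 ± 0.46), whose products are abundant in muscle fibres, and Mir1a-2 was not called in 6 of 19 alternatives (adjusted p up to 0.14). Their second copies, Mir133a-1 (-0.70 ± 0.34) and Mir1a-1 (-0.45 ± 0.25), were not called.

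The same contrast was measured in other mice at the earlier ages, and the ages share no arrays. Of the 504 genes higher at 6 months, 222 (44%, against 54.7% of all genes) lay on the higher side at 21 days and 429 (85.1%, against 53.2% of all genes) at 3 months. At 21 days 68 of the 504 were called higher, where 13.9% of all genes were, and 88 lower, where 13.6% of all genes were. At 3 months, where 2.02% of all genes were called in either direction, 126 were called higher, which is 25% of the 6 month list and 37.4% of the 3 month list, where 1.69% of all genes were called higher. Of the 409 genes lower at 6 months, 272 (66.5%, against 45.3% of all genes) lay on the lower side at 21 days and 304 (74.3%, against 46.8%) at 3 months. Of these 409, 121 were called lower at 21 days, and 20 at 3 months, where 0.326% of all genes were. Over all 19938 genes, the 6 month differences had a Pearson r of 0.12 with the 3 month differences. Their r with the 21 day differences was -0.03. Both values are a description, since genes are not independent replicates.

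The difference at 6 months differed from that at 21 days for 3078 genes (15.4% of those tested). Of these, 1776 were more positive (8.91%) and 1302 more negative (6.53%) at 6 months. They included 298 of the 504 and 145 of the 409 genes. The 504 and 409 genes were chosen by the same 6 month difference. Their counts therefore cannot be set against the shares of all genes. Without the other-tissue arrays, which at 21 days leaves 3 double mutant and 2 Dmdmdx arrays, 1157 genes passed. Ccl8 differed by -1.33 ± 0.38 at 21 days, 0.65 ± 0.38 at 3 months and 1.38 ± 0.38 at 6 months, and the value at 6 months was 2.71 above that at 21 days (adjusted p = 0.00051). Sh3rf2 differed by 0.84 ± 0.22, -0.22 ± 0.22 and -1.25 ± 0.22 in the same order of ages. Nos1 was called higher at 21 days (0.73 ± 0.21) and lower at 6 months. Vsig4 was called higher at every age, by 1.86 ± 0.32 at 21 days, 1.52 ± 0.32 at 3 months and 2.68 ± 0.32 at 6 months.

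The difference at 6 months differed from that at 3 months for 2 genes in limma (0.01%), 1 more positive (0.00502%) and 1 more negative (0.00502%) at 6 months. Clic4, a chloride channel protein, differed by 0.049 ± 0.06 at 3 months and rose by 0.53 ± 0.06 at 6 months. Eif2b2, a subunit of the exchange factor for translation initiation, differed by 0.18 ± 0.08 at 3 months and fell by 0.46 ± 0.08 at 6 months. Expression itself was not compared between ages, because the arrays of each age have their own overall level.

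By list, the interstitial matrix had 3 higher and 13 lower genes at 21 days, 16 higher at 3 months and 15 higher at 6 months. The basement membrane list had 5 higher and 7 lower of 21 genes at 21 days, 11 higher at 3 months (median 0.49) and 0 called by limma at 6 months. The 6 month difference differed from the 3 month one for 0 of these 21 genes by the test, and from the 21 day one for 8. Of all genes, 13.9% were called higher and 13.6% lower at 21 days, and 1.69% higher at 3 months. The glycolysis and glycogen genes had medians of -0.18 at 21 days, -0.025 at 3 months and -0.34 at 6 months, and the slow fibre genes 0.024, 0.45 and 0.53. The fast fibre genes had medians of -0.092, 0.049 and -0.26 in that order, with 3, 0 and 7 called lower. In the matrix, glycolysis, slow fibre and fast fibre lists too, 0 genes passed the test of 6 against 3 months. Of the 29 interferon-induced genes 25 were lower at 21 days.

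**Figure D4:**
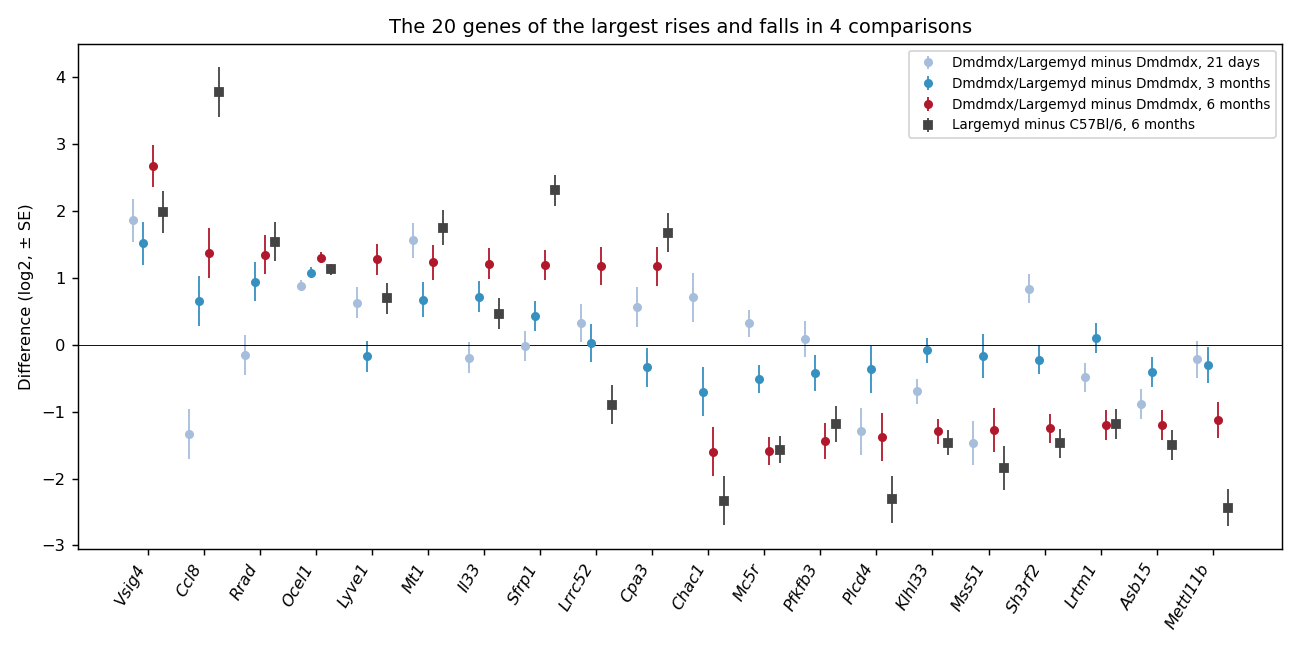
Difference in log2 units ± SE for the 20 genes of the largest rises and falls, for double mutant minus Dmdmdx at 21 days, 3 months and 6 months, and for Largemyd minus C57Bl/6 at 6 months, n = 5 arrays a group. Ccl8 lies at -1.33 at 21 days and 1.38 at 6 months, while Vsig4 and Ocel1 lie above 0 in all 4 comparisons.

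Largemyd mice with intact dystrophin, set against C57Bl/6 mice at the same age, share no arrays with the comparison. Of the 504 higher genes 494 (98%, against 49% of all genes) lay on the higher side there too, and 429 (85.1%) were called higher, where 15.4% of all genes were. Of the 409 lower genes 404 (98.8%, against 51% of all genes) lay on the lower side and 382 (93.4%) were called lower, where 17.1% of all genes were. The calls shared make up 13.9% of the genes higher and 11.2% of those lower in Largemyd. The median difference of the 504 genes was 0.48 in the double mutants against Dmdmdx and 0.63 in Largemyd against C57Bl/6, and that of the 409 genes was -0.42 and -0.68 in the same order. Across all 19938 genes the differences had a Pearson r of 0.69, given as a description since genes are not independent replicates. Xist was high in 3 of 5 Largemyd and 4 of 5 C57Bl/6 arrays, and its part in these values was not tested.

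The size of the difference differed between these contrasts for 1001 genes (5.02%), 592 with a more positive (2.97%) and 409 with a more negative value (2.05%) in the double mutant contrast. With the high-Xist arrays left out, a setting with 1 remaining C57Bl/6 array, 58 genes passed. With all arrays, 59 of the 504 and 41 of the 409 called genes passed. The calls rest on the 6 month difference that enters this test. These counts therefore cannot be set against the shares of all genes. Ccl8 differed by 1.38 ± 0.38 in the double mutants against Dmdmdx and by 3.78 ± 0.38 in Largemyd against C57Bl/6, and Sfrp1 by 1.19 ± 0.23 and 2.31 ± 0.23 in the same order. Lrrc52 was higher in the double mutants (1.18 ± 0.29) and lower in Largemyd (-0.89 ± 0.29), and the contrasts differed by 2.07 (adjusted p = 0.0012).

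Of the 40 macrophage genes 5 were higher in the double mutants, where 2.53% of all genes were, and 37 in Largemyd, where 15.4% of all genes were. For 18 of the 40 the difference was more negative in the double mutant contrast by the test, which held for 2.05% of all genes. Utrn was not called in the double mutants (0.11 ± 0.07) and rose in Largemyd (0.47 ± 0.07), and the contrasts differed (adjusted p = 0.028). Ostn, a hormone secreted by muscle, differed by -0.22 ± 0.26 in the double mutants and -3.16 ± 0.26 in Largemyd (adjusted p of the difference 9.6e-07), and Mstn by -0.89 ± 0.30 and -2.63 ± 0.30 (adjusted p of the difference 0.0077).

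**Figure D5:**
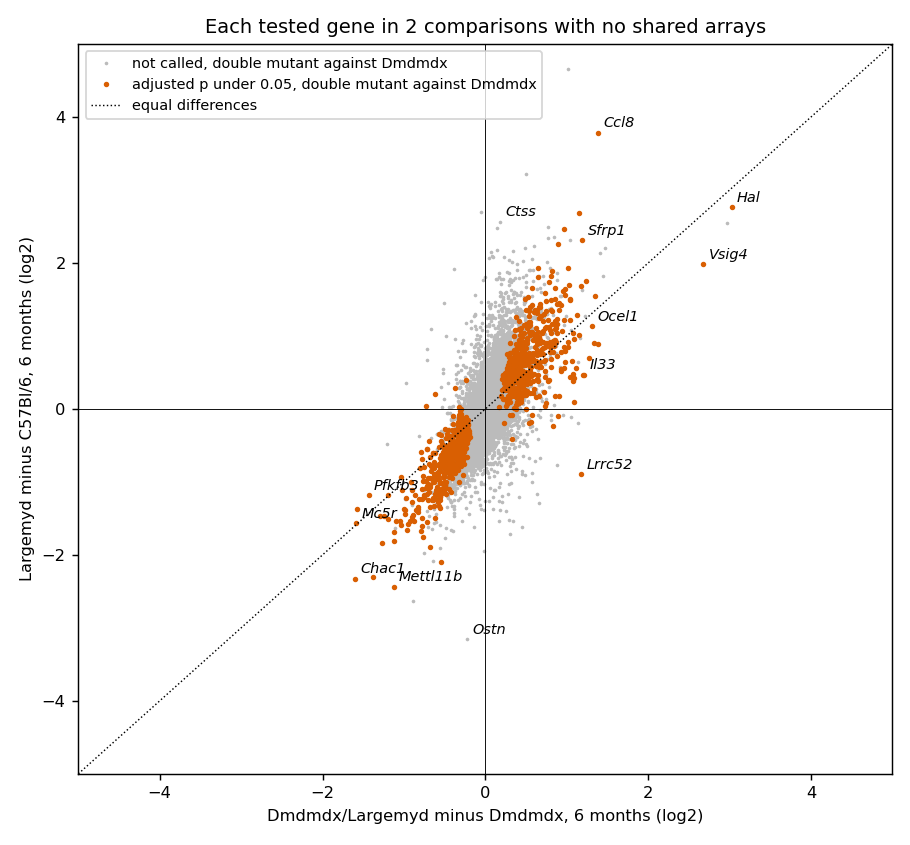
Each point is 1 of 19938 genes, with the double mutant minus Dmdmdx difference on the horizontal axis and the Largemyd minus C57Bl/6 difference on the vertical axis, both at 6 months in log2 units, and a dotted line where they are equal. Lrrc52 lies at 1.18 and -0.89, and Ccl8 at 1.38 and 3.78, above the dotted line.

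In the contrast at all 3 ages and in Largemyd against C57Bl/6 at 6 months, 25 genes were called in the same direction, 13 higher and 12 lower. They were chosen by these calls and are given as a description. Of the 25, 6 (24%) are on chromosome 8, which holds 4.79% of the genes tested. Ocel1 and Jund, a transcription factor of the AP-1 family (0.54 ± 0.09), were higher. Lsm4, a protein of RNA splicing (-0.53 ± 0.07), Haus8, of the mitotic spindle (-0.36 ± 0.11), B3gnt3, a glycosyltransferase (-0.78 ± 0.10), and Gadd45gip1, of mitochondrial ribosomes (-1.03 ± 0.12), were lower. Gadd45gip1 was at 9.26, 9.19, 9.07, 9.02 and 9.06 in the double mutants, against 9.91, 10.18, 10.13, 10.26 and 10.27 in Dmdmdx, with a clear gap between the groups. All of these but Gadd45gip1 lie within 40 consecutive of the 955 tested genes of the chromosome, a stretch whose ends are set by these genes.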

How the data were processed

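Total RNA of frozen, powdered calf muscle from single animals was hybridised to Affymetrix Mouse Gene 1.0 ST arrays. The deposited values are log2 expression values that the authors made with RMA in Affymetrix Expression Console, per the submitters' processing notes, with versions not given in the sources used here. Array means lay from 6.78 to 6.81 in mice of 21 days, from 7.19 to 7.27 in those of 3 months and from 7.32 to 7.37 in those of 6 months, and levels were therefore not compared across ages. The number of arrays limits the precision.

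Of 35556 probe sets, 21789 had 1 gene symbol in the platform annotation, 1621 several and 12146 none that was used. Each gene kept its probe set of highest mean over all 60 arrays, which gave 19938 genes. limma 3.58.1 (R 4.3.3) was fitted to all 60 arrays with 1 mean for each of 12 groups (48 residual degrees of freedom), with Benjamini-Hochberg adjustment over all genes, and the code was checked on simulated data. The genes named are the 10 largest rises and falls among calls with groups apart, up to 6 called members of each list with the largest differences, the genes with the largest differences between contrasts, Dmd, Utrn and Dag1, and those said to be chosen after their values were seen. The 47 lists held 1207 genes, 1108 of them measured. The members and lists were chosen with earlier results of these data known. No 2 arrays held identical values. The alternatives were other sets of arrays, array medians subtracted, array weights, a trended prior, genes above the median level, the mean of all probe sets, and each array left out.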

Additional observations from a re-analysis of the deposited data

Results flagged for a closer look

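Of 86 groups of 5 arrays examined, 14 held an array far from the other 4, by a test that chance passes in about 1 of 20 groups. H2-Ea and Hal were added to this check by name, Hal after its values were seen. The count of 14 therefore cannot be set against that rate. In the double mutants, replicate 1 was far above the others for H2-Ea, at 11.14 against 5.735 to 5.988, and far below them for Hal, at 6.629 against 9.59 to 10.75. Double mutant replicate 4 was lowest for Mettl11b, at 6.164 against 6.89 to 7.122, and for the mean over regenerating fibre genes, at 9.886 against 10.23 to 10.33. It was highest for the means over neutrophil and marrow genes, at 10.82 against 6.783 to 6.976, erythroid genes, at 9.969 against 6.615 to 6.712, and B cell genes, at 8.746 against 7.107 to 7.192.

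In Dmdmdx, replicate 1 was lowest for Cpa3, at 7.832 against 9.189 to 9.597, for the mean over mast cell genes, at 6.688 against 7.28 to 7.342, and for that over tendon genes, at 8.798 against 9.278 to 9.39. Dmdmdx replicate 4 was lowest for Pfkfb3, at 10.11 against 10.98 to 11.09, and highest for H2-Ea, at 6.026 against 5.813 to 5.872. Dmdmdx replicate 5 was highest for Vsig4, at 7.133 against 6.178 to 6.38, and for the mean over erythroid genes, at 7.763 against 6.744 to 6.796.

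Among the genes of the largest rises and falls and Dmd, Utrn and Dag1, the difference at 6 months minus that at 21 days passed the test for Ccl8 (2.708), Rrad (1.503), Il33 (1.406), Sfrp1 (1.215) and Ocel1 (0.4224), and in the negative direction for Chac1 (-2.314), Sh3rf2 (-2.087), Mc5r (-1.911) and Pfkfb3 (-1.522). The double mutant minus Dmdmdx difference minus the Largemyd minus C57Bl/6 difference passed for Lrrc52 (2.07), Mettl11b (1.305), Ccl8 (-2.406), Sfrp1 (-1.118) and Utrn (-0.3597). The genes of the largest rises and falls were chosen by their 6 month difference, which enters both tests.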

How the results depend on the processing

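No paired analysis was possible because the replicate numbers follow the order of the samples and pair no animals. All 913 called genes kept their direction under the 20 alternatives (800 of 800 measured among genes above the median level). These genes were called on the same arrays, so that is no independent check. Of the 135 called genes picked for naming, by the rule or after their values were seen, 62 kept their call in all. The calls numbered 3019 with array weights (1604 higher, 1415 lower), and 659 genes were lower in a fit to the 10 arrays compared. Leaving out 1 array gave 590 to 957 calls, 312 to 485 higher and 251 to 472 lower. The count of genes whose difference differed from that at 3 months was 317 with array weights, 1 with array medians subtracted, 6 among genes above the median level, 12 without the other-tissue arrays and 1 to 9 with 1 array left out. Against 21 days it was 5669 with array weights, 1157 without the other-tissue arrays and 631 without those and the high-Xist arrays, a setting chosen after seeing the data. Against Largemyd minus C57Bl/6 it was 3870 with array weights, 58 without the high-Xist arrays, 1691 without the other-tissue arrays and 627 to 1111 with 1 array left out. The causes were not tested. The reversals were of genes not called. Myh1 was at -0.025 with array medians subtracted. Mpeg1 was at -0.0196 with array weights, -0.00733 without the high-Xist arrays, -0.0577 without the other-tissue arrays and -0.159 without both. Cd68 was at -0.0222 without the high-Xist arrays and -0.176 without both, where Ctss was at -0.0368, Ms4a7 at -0.0186 and Xist at 0.0285. Otub2 was at 0.0212 without the high-Xist arrays and 0.0695 without both. With 1 array left out the ranges were -0.193 to 0.0907 for C3ar1, -0.0222 to 0.248 for Cd68, -0.0442 to 1.31 for H2-Ea, -0.0369 to 0.193 for Mpeg1, -0.0276 to 0.05 for Myh1, -0.0975 to 0.0697 for Otub2 and -0.263 to 0.0598 for Retnla.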
